A study of Homo sapiens with 12 samples.

Results

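The RAB GTPases are the largest branch of the RAS superfamily of small GTPases, and their transcripts were followed here in C4-2 cells after knockdown of CHKA, the gene of choline kinase alpha. Members were taken by symbol, as protein-coding genes named RAB followed by a number and at most 1 letter and 1 further digit, so that effectors and RAB-interacting genes stayed out. A member also needed 50 or more reads summed over all 12 samples. This left 57 of the 63 such genes in the annotation. RAB3C (2 reads), RAB34 (20 reads), RAB38 (8 reads), RAB40A (48 reads) and RAB44 (1 read) were under the minimum, and RAB7B was not analysed here.

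Polyadenylated RNA was sequenced from 2 groups of 6 samples, all of C4-2, an androgen receptor-positive human prostate cancer line derived from LNCaP, grown in serum-containing medium. One group received 50 nM of an siRNA pool against CHKA (siCHKA) and the other the same dose of nontargeting siRNA (siNT), both by reverse transfection. The labels say that RNA came from flow sorted cells and list an antibody against CHKA. They give neither the gate nor the time after transfection. The study calls its replicates biological, but its figure legends differ on their number. One describes the knockdown genes as chosen from biological triplicates, and another gives 6 biological replicates. Neither the study nor the labels says which samples came from separate cultures. The 6 samples of a group may thus not be 6 independent units. All p-values measure the spread between these samples, part of which may be technical. The model is 1 cell line and 1 siRNA pool per group, so effects of the pool on other transcripts and effects of lower CHKA cannot be told apart.

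RAB proteins switch between a GDP-bound form held in the cytosol by GDP dissociation inhibitors and a GTP-bound form on membranes, where they recruit effectors such as tethers, motors and kinases. Exchange factors load them with GTP at a given membrane and GTPase activating proteins switch them off again. Each RAB marks particular membranes, so that RAB1 stands for transport from the endoplasmic reticulum to the Golgi, RAB5 for early endosomes, RAB11 for recycling endosomes, RAB7 for late endosomes and RAB27 for secretory organelles. In epithelial cells, including those of the prostate, these routes carry secreted proteins, receptors and integrins to and from the cell surface.

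Reads counted on genes ranged from 12158361 to 20670479 per siCHKA sample and from 10685184 to 24246055 per siNT sample. CHKA (ENSG00000110721, chr11:68052859-68121444, minus strand, GRCh38) was found at a median of 41.6 CPM (36.7 to 43.3) in siNT and at a median of 2.31 CPM (1.91 to 4.67) in siCHKA samples, with the lowest and highest sample in parentheses, where CPM are counts scaled to library size after TMM normalization, a log2 fold change of -3.88 (SE 0.14, edgeR adjusted p = 5.89e-13). The groups did not overlap. All 10 markers of C4-2 cells that were examined were above 10 CPM, with a summed level of 5673 to 7174 CPM in siNT and 4654 to 5814 CPM in siCHKA samples. Of 12 markers of leukocytes, fibroblasts, endothelium, basal epithelium and neuroendocrine cells, 11 were found, 5 of them under 1 CPM in siNT samples. Their summed level was 24.3 to 31.0 CPM in siNT and 33.1 to 42.6 CPM in siCHKA samples, and the markers did not move together. On average COL1A1 was at 15.0 and 26.8 CPM and CD68 at 2.98 and 4.88 CPM in siNT and siCHKA samples, while PDGFRB was at 3.74 and 1.37 CPM, VWF at 2.996 and 1.52 CPM and PTPRC at 0.148 and 0.0251 CPM. TP63 and KRT5 were at or near 0 in both groups. The part of these markers in the RAB results was not tested. The siCHKA libraries fell into 2 sets: pairs within replicates 1, 3 and 5 or within replicates 2, 4 and 6 differed by a chi-square per degree of freedom of 2.39 to 9.50 over genes, and pairs across the sets by 12.5 to 24.9. Among siNT pairs the values ran from 2.51 to 30.9, the highest being that of replicates 3 and 5. No label names these sets, so the RAB values of each set are given below without a test between them.

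Of the 57 members, 54 had enough counts to be tested. RAB33A, RAB41 and RAB42 did not pass the filter on low counts, with means between 0.182 and 0.435 CPM, and no fold is given for them. With edgeR's quasi-likelihood test over all 14501 tested genes and an adjusted p below 0.05, 14 members fell and 22 rose after siCHKA, while 18 did not pass. Knockdown moved much of the transcriptome in the same test: 30.1% of all tested genes fell, 32.1% rose and 62.2% changed in either direction. The family stood at 25.9% lower and 40.7% higher, 66.7% in all, and its median log2 fold change was 0.10 beside 0.035 over all tested genes. The changes were mostly small, 24 of the 36 being under 0.5 on the log2 scale. A fall of at least 0.5 was found for 6 members (RAB21, RAB19, RAB39A, RAB2B, RAB31 and RAB25), where 14.0% of all tested genes fell by as much. A rise of at least 0.5 was found for 6 others (RAB9B, RAB6C, RAB4B, RAB36, RAB40C and RAB26), beside 16.2% of all tested genes. The siCHKA samples all lay below the siNT samples for 12 members and all above for 12, against 21.5% and 19.1% of all tested genes. Because RNA was taken in bulk, fewer cells holding a transcript and less of it per cell cannot be told apart.

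**Figure D1:**
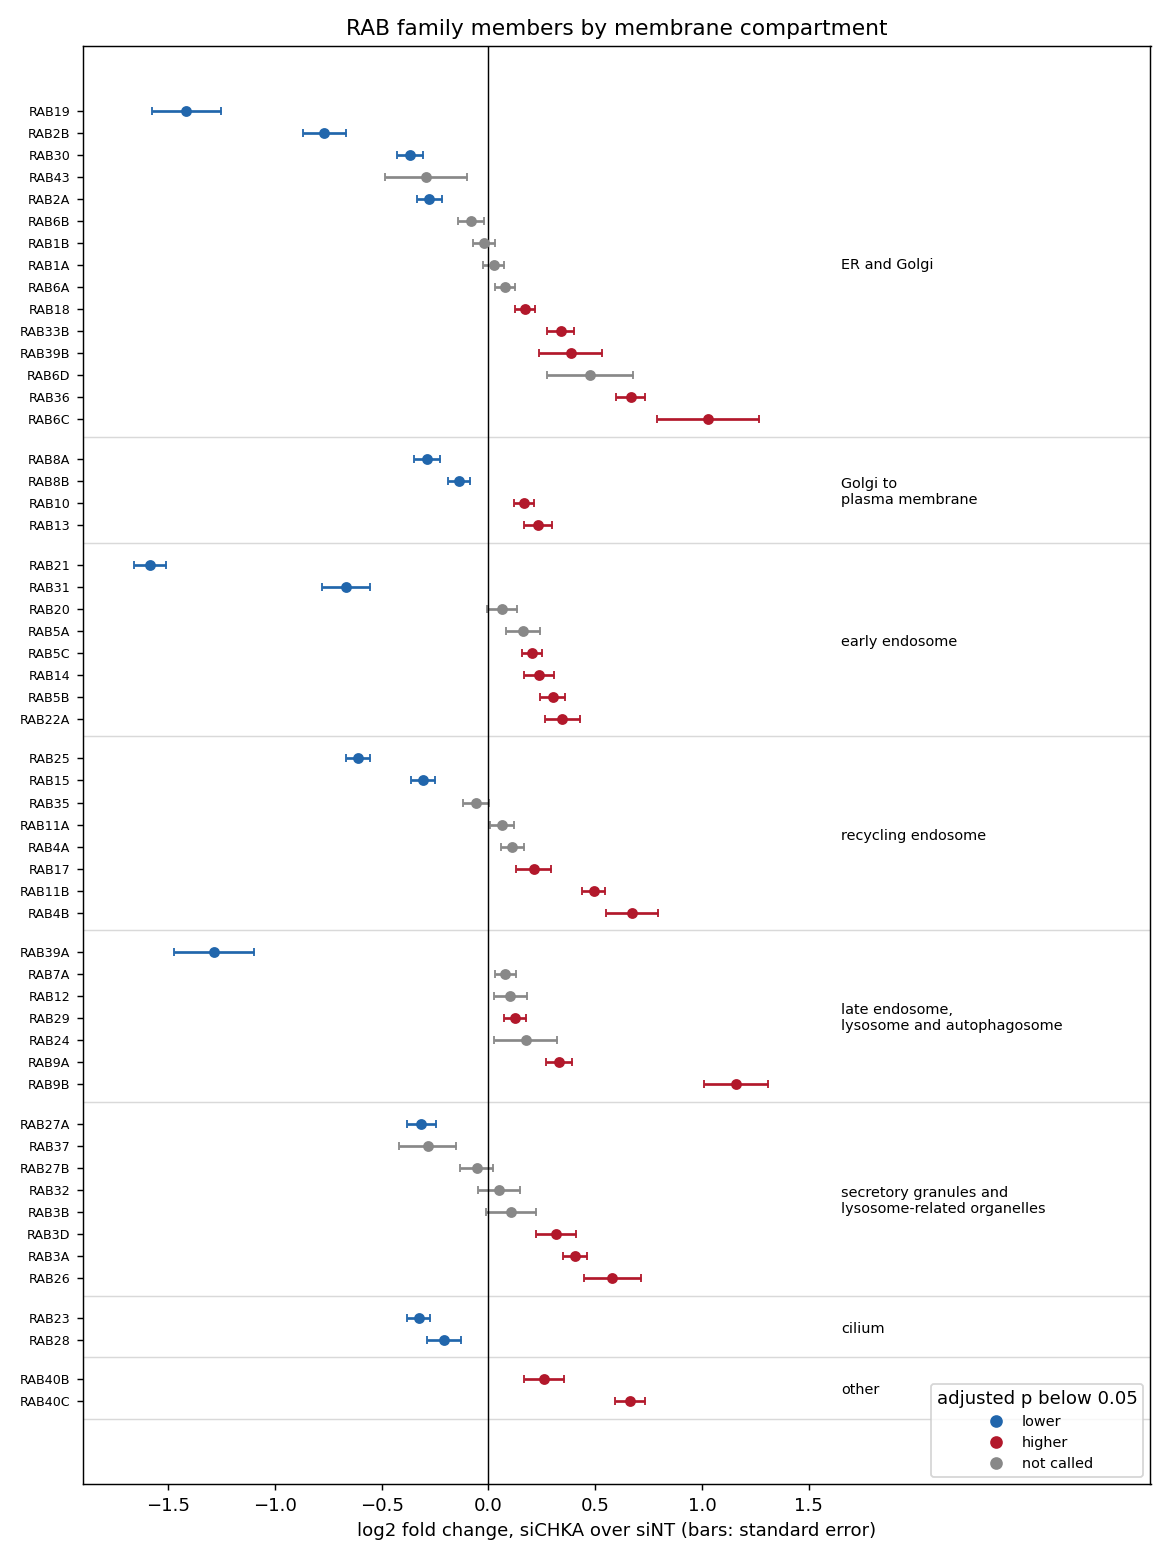
Log2 fold change of the 54 tested RAB members, siCHKA over siNT, with bars of 1 standard error, sorted within 8 membrane compartments and coloured by the call at an adjusted p below 0.05. RAB21 at -1.58 and RAB9B at 1.16 mark the ends of the family, and every compartment of more than 2 tested members holds both lower and higher members.

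The 7-base words GCCAGAT and TGCCCTT had been related to falls in this same contrast by an earlier analysis of these data, so their place in the family is shown as a description only. They were looked for on the transcript strand of the annotated 3′ UTR of each member. Of the 24 tested members with a word, 8 fell (33.3%) and 7 rose (29.2%), beside 44.3% and 23.6% of all 2907 tested genes with a word. Sites are printed for called members with a word that changed by 0.5 or more. RAB3A and RAB30, next in size of change among called members with a word, are printed too. RAB6A, not called, is added as the source of RAB6C. The word is in capitals (GRCh38, 30 bases each, 5′ to 3′ on the transcript strand).
RAB21, chr12:71788249-71788278: tgctccagaattGCCAGATaattattggtg
RAB21, chr12:71792995-71793024: atacattttcaaGCCAGATtaaaattgaat
RAB21, chr12:71790592-71790621: atattgtcaaagTGCCCTTtggtagtgctc
RAB19, chr7:140427906-140427935: cccaaatcatctGCCAGATcagaagtcatt
RAB2B, chr14:21459915-21459944: tttattttagggGCCAGATctaacattgta
RAB25, chr1:156070350-156070379: aggacctttcctTGCCCTTtggttccagat
RAB30, chr11:82978768-82978797: ttggccagagacGCCAGATttagcaaagga
RAB3A, chr19:18197106-18197135: ttgtgaagagggGCCAGATgacaccctaaa
RAB6C, chr2:129982242-129982271: atactaggagtgTGCCCTTttaatctttac
RAB6A, chr11:73676364-73676393: atactaggagtgTGCCCTTttaatctttac
The first 7 windows belong to 5 members that fell, and RAB3A and RAB6C rose. Windows of the other called members with a word are left out. Of these, RAB2A, RAB15 and RAB28 fell, and RAB5B, RAB14, RAB17, RAB18 and RAB40B rose, so the windows printed lean towards members that fell. The window of RAB6C, which rose, was identical over all 30 bases to that of RAB6A, its source gene, which was not called, and that of RAB6D matched it at 29 of 30 bases.

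The early endosome members receive cargo from the cell surface and sort it, and they held the largest fall of the family. Of 8 members, 2 fell, 4 rose and 2 were not called, with a median log2 fold change of 0.18. With so few genes, these and the following counts stand beside 30.1% lower and 32.1% higher over all tested genes. RAB21 (ENSG00000080371, chr12:71754863-71800286, plus strand), which moves integrins through early endosomes, was measured at a median of 76.4 CPM (67.4 to 89.2) in siNT samples and a median of 25.7 CPM (23.5 to 27.5) in siCHKA samples. Even the highest siCHKA sample was far below the lowest siNT sample. The log2 fold change was -1.58 (SE 0.074, edgeR adjusted p = 9.17e-12), which left 33.3% of the siNT level, and over 21 alternative fits it stayed between -1.63 and -1.47. In the exact two-sided permutation test of log2 CPM the p was 0.00216, the smallest that 6 against 6 samples can give. This had to follow from groups that do not overlap, so it adds nothing to that separation. The siCHKA samples lay all below or all above the siNT samples for 21.5% and 19.1% of all tested genes. RAB31 (ENSG00000168461, chr18:9708275-9862551, plus strand), a relative of RAB5 between the Golgi and endosomes, went from a median of 31.03 CPM (27.5 to 41.97) to a median of 20.5 CPM (17.5 to 23.9). The groups did not overlap, although the siNT samples spread widely, and the log2 fold change was -0.67 (SE 0.11, edgeR adjusted p = 5.49e-05).

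Of the 3 forms of RAB5, which drive fusion of early endosomes, 2 rose slightly and RAB5A did not pass. RAB5B ran from a median of 35.2 CPM (32.5 to 38.02) in siNT to a median of 42.2 CPM (40.2 to 47.3) in siCHKA samples, with a log2 fold change of 0.30 (SE 0.059, edgeR adjusted p = 2.63e-04). RAB5C, the most abundant of them, ran from a median of 202 CPM (195 to 218) to a median of 233 CPM (225 to 253), with 0.20 (SE 0.047, edgeR adjusted p = 0.00136). Neither overlapped between groups, and 30.4% of the annotated exon bases of RAB5C are shared with RAB5C-AS1 and a further gene. RAB5A was not called at 0.16 (SE 0.08, edgeR adjusted p = 0.0882), with a median of 51.9 CPM (49.3 to 60.8) in siNT and a median of 59.8 CPM (48.9 to 71.1) in siCHKA samples, ranges that overlapped. RAB22A, a further early endosome GTPase close to RAB31 and RAB5, rose by 0.35 (SE 0.08, edgeR adjusted p = 0.00119) on the log2 scale without overlap, in the opposite direction to RAB31. RAB14, which links endosomes with the Golgi, rose by 0.24 (SE 0.07, edgeR adjusted p = 0.00736), the value being 0.38 with siCHKA replicates 1, 3 and 5 and 0.083, not called, with replicates 2, 4 and 6. RAB20, a RAB of phagosomes, was not called, at 0.064 (SE 0.071, edgeR adjusted p = 0.454). Apart from RAB21 and RAB31, the early endosome values lay between 0.064 and 0.35.

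The 17 members placed on the endoplasmic reticulum and Golgi carry traffic between these organelles. Among the 15 tested, 4 fell, 5 rose and 6 were not called, and the median was 0.024. Neither form of RAB1 passed the test. RAB1A, needed for transport into the Golgi, ran from a median of 149 CPM (139.9 to 151) in siNT to a median of 150.0 CPM (139 to 163) in siCHKA samples, a log2 fold change of 0.024 (SE 0.048, edgeR adjusted p = 0.678). RAB1B ran from a median of 117 CPM (111 to 125) to a median of 113 CPM (109 to 128), with -0.02 (SE 0.053, edgeR adjusted p = 0.756), and 43.8% of its exon bases are shared with other genes. Both pairs of ranges overlapped. RAB6A, the RAB of retrograde Golgi transport, was at 0.079 (SE 0.047, edgeR adjusted p = 0.157) and its neuronal relative RAB6B at -0.084 (SE 0.061, edgeR adjusted p = 0.246).

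RAB2A and RAB2B, which act between the Golgi and the endoplasmic reticulum and in fusion of late endosomes, both fell. RAB2B (ENSG00000129472, chr14:21459020-21476960, minus strand) dropped from a median of 26.7 CPM (21.2 to 28.8) to a median of 15.4 CPM (12.2 to 18.1), with -0.77 (SE 0.10, edgeR adjusted p = 4.91e-06). RAB2A, the higher of the pair per length, went from a median of 123 CPM (120.1 to 141) to a median of 104 CPM (93.8 to 118), with -0.28 (SE 0.06, edgeR adjusted p = 6.69e-04). In neither case did the groups overlap. The fall of RAB2B was larger in siCHKA replicates 1, 3 and 5 (12.2 to 13.99 CPM) than in replicates 2, 4 and 6 (16.8 to 18.1 CPM), while RAB2A had the reverse order at 107 to 118 and 93.8 to 100.3 CPM. RAB19 (ENSG00000146955, chr7:140404058-140427974, plus strand), a little studied Golgi-associated member, had the second largest fall of the family, from a median of 6.97 CPM (4.04 to 8.76) to a median of 2.58 CPM (1.88 to 2.95), with -1.41 (SE 0.16, edgeR adjusted p = 8.03e-07). Its lowest siNT sample, replicate 3, was still above every siCHKA sample. RAB30, a Golgi RAB, fell without overlap, with -0.37 (SE 0.061, edgeR adjusted p = 5.25e-05).

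The rises in this compartment came from RAB36, RAB6C, RAB33B, RAB18 and RAB39B. RAB36 (ENSG00000100228, chr22:23145366-23165663, plus strand), a RAB of the Golgi and of lysosome positioning, went from a median of 14.2 CPM (11.9 to 14.9) to a median of 21.6 CPM (20.8 to 22.6) with 0.67 (SE 0.069, edgeR adjusted p = 2.49e-07), and its 2 siCHKA sets were alike at 20.8 to 22.4 and 20.9 to 22.6 CPM. RAB6C (ENSG00000222014, chr2:129979666-129982738, plus strand), a primate retrocopy of RAB6A, was rare, with a median of 0.669 CPM (0.389 to 0.931) in siNT and a median of 1.33 CPM (0.914 to 2.05) in siCHKA samples, with 1.03 (SE 0.24, edgeR adjusted p = 0.00131). Its groups overlapped, and its call was lost in siCHKA replicates 1, 3 and 5 alone (log2 fold change 0.58). RAB6C and RAB6D share long stretches with RAB6A and reads with several alignments were not counted, so both are uncertain. RAB6D was not called at 0.47 (SE 0.20, edgeR adjusted p = 0.0687). RAB33B, which acts in autophagosome formation from the Golgi, rose by 0.34 (SE 0.062, edgeR adjusted p = 1.48e-04) without overlap, RAB18 of lipid droplets by 0.17 (SE 0.049, edgeR adjusted p = 0.00543), and the mainly neuronal RAB39B by 0.38 (SE 0.15, edgeR adjusted p = 0.0323). RAB43 was at -0.29 (SE 0.19, edgeR adjusted p = 0.194), but 79.3% of its exon bases lie in the readthrough gene ISY1-RAB43, where reads can be dropped as ambiguous.

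**Figure D2:**
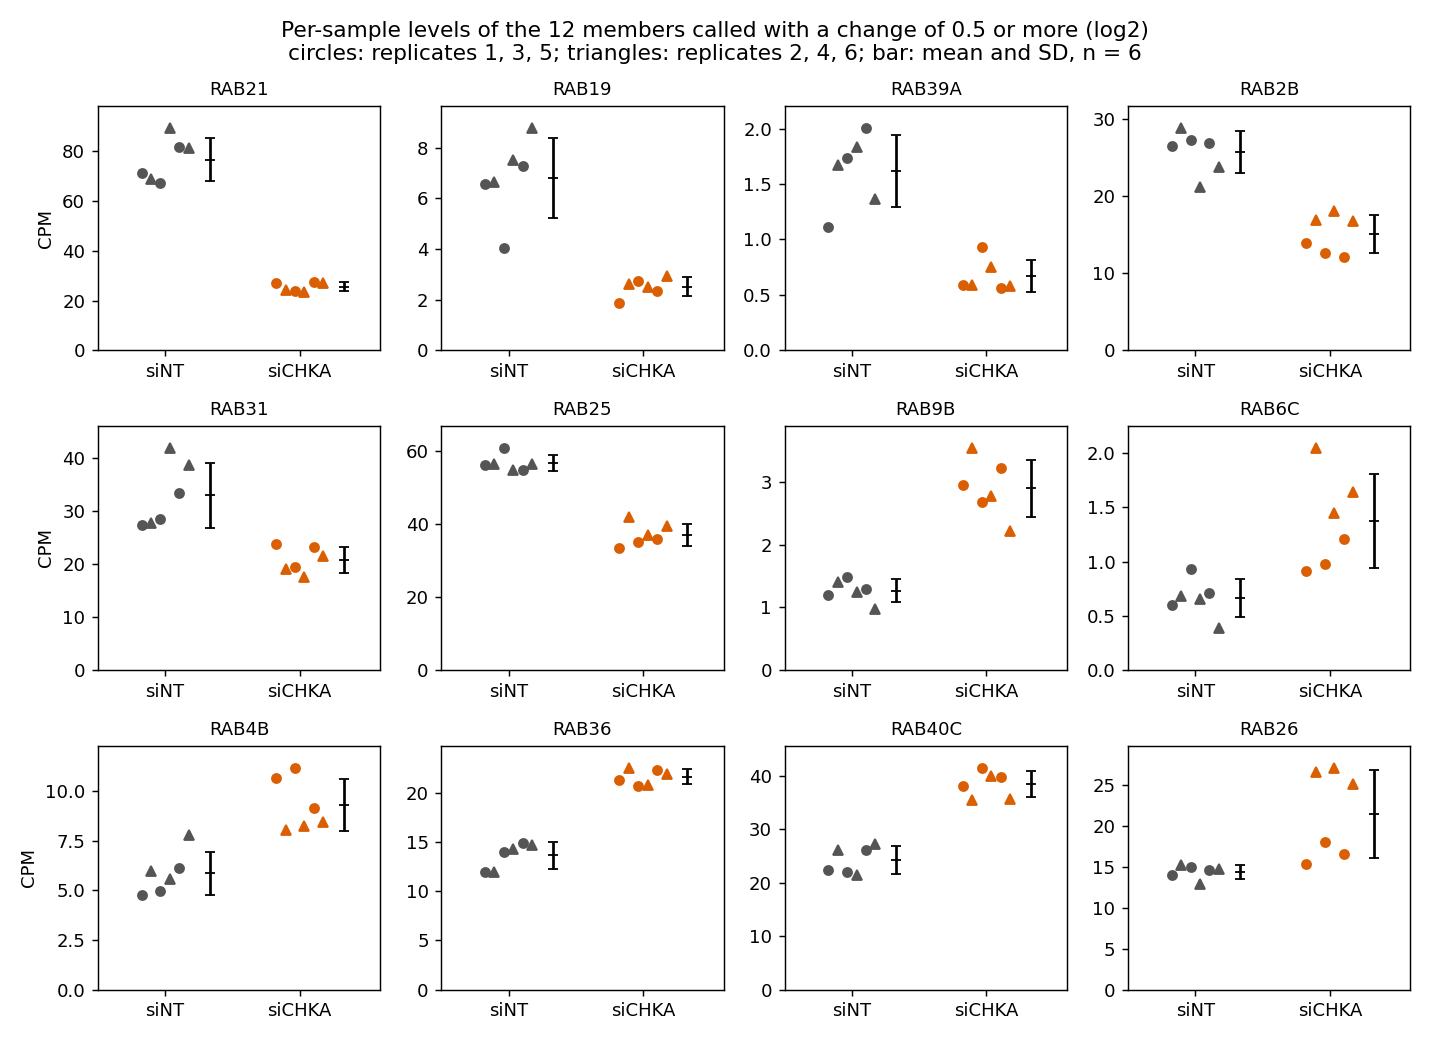
Level in CPM of each of the 12 members that changed by 0.5 or more on the log2 scale, for 6 siNT and 6 siCHKA samples, with the mean and SD beside the points and circles or triangles for odd or even replicate numbers. Only RAB6C overlaps between the groups, and the siCHKA circles and triangles of RAB26 stand apart, at 15.4 to 18.02 and 25.1 to 27.1 CPM.

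The 4 members of the Golgi to plasma membrane route split into pairs of opposite direction, and the median was 0.014. RAB8A, which delivers vesicles to the surface and the cilium, fell from a median of 118 CPM (112 to 129) to a median of 97.6 CPM (86.3 to 108), with -0.29 (SE 0.06, edgeR adjusted p = 5.01e-04) and no overlap. RAB8B went from a median of 64.1 CPM (61.2 to 68.5) to a median of 57.8 CPM (54.2 to 65.6), with -0.14 (SE 0.051, edgeR adjusted p = 0.0259). The ranges of RAB8B overlapped, and its call was lost when siCHKA replicate 2, 4 or 6 was left out, at log2 fold changes of -0.13, -0.12 and -0.13. RAB10, of exocytosis and glucose transporter delivery, rose by 0.17 (SE 0.047, edgeR adjusted p = 0.00551), and RAB13, of tight junctions, by 0.23 (SE 0.065, edgeR adjusted p = 0.00534). These rises were 0.20 and 0.34 in siCHKA replicates 1, 3 and 5, and 0.13 and 0.11 in replicates 2, 4 and 6, where neither was called. For RAB8A, 43.95% of exon bases are shared with other genes.

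The recycling endosome members return receptors to the surface, and here the close relatives of RAB11 parted. Of 8 members, 2 fell, 3 rose and 3 were not called, with a median of 0.088. RAB25 (ENSG00000132698, chr1:156061160-156070504, plus strand), the epithelial form of RAB11, fell from a median of 56.4 CPM (54.9 to 60.9) to a median of 36.5 CPM (33.4 to 41.9), with -0.61 (SE 0.057, edgeR adjusted p = 7.30e-08). RAB11B rose from a median of 47.98 CPM (43.96 to 51.7) to a median of 68.9 CPM (62.5 to 71.5), with 0.49 (SE 0.053, edgeR adjusted p = 4.54e-07). The groups were apart for both genes, in opposite directions. RAB11A, the most abundant recycling member per length, was at a median of 257 CPM (254 to 275) in siNT and a median of 268 CPM (250.4 to 306) in siCHKA samples and was not called, with 0.063 (SE 0.054, edgeR adjusted p = 0.324). RAB4B (ENSG00000167578, chr19:40778216-40796942, plus strand), of rapid recycling, rose from a median of 5.75 CPM (4.78 to 7.79) to a median of 8.79 CPM (8.05 to 11.2), with 0.67 (SE 0.12, edgeR adjusted p = 1.15e-04). RAB4A went from a median of 63.3 CPM (59.8 to 67.7) to a median of 68.3 CPM (61.7 to 74.7) and was not called, with 0.11 (SE 0.055, edgeR adjusted p = 0.0878). Of the RAB4 forms only RAB4B, the rarer per length, passed the test, and 39.7% of its exon bases are shared with readthrough genes. RAB15, which slows recycling, fell without overlap, with -0.31 (SE 0.058, edgeR adjusted p = 2.01e-04). RAB17, of epithelial transcytosis, rose by 0.21 (SE 0.08, edgeR adjusted p = 0.0301), a call that 5 of the 12 single-sample omissions ended (siCHKA replicates 2, 4 and 6 and siNT replicates 3 and 4, log2 fold changes 0.16 to 0.19). RAB35, of rapid recycling from the plasma membrane, was at -0.057 (SE 0.062, edgeR adjusted p = 0.436).

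On late endosomes, lysosomes and autophagosomes, 1 of 7 members fell, 3 rose and 3 were not called, with a median of 0.12. RAB9B (ENSG00000123570, chrX:103822327-103832257, minus strand), which returns receptors from late endosomes to the Golgi, had the largest rise of the family, from a median of 1.27 CPM (0.974 to 1.49) to a median of 2.87 CPM (2.22 to 3.55), with 1.16 (SE 0.15, edgeR adjusted p = 3.36e-06). RAB39A (ENSG00000179331, chr11:107928448-107963482, plus strand), of phagosome and late endosome maturation, fell from a median of 1.704 CPM (1.11 to 2.001) to a median of 0.592 CPM (0.565 to 0.930), with -1.28 (SE 0.19, edgeR adjusted p = 1.48e-05). Both were rare transcripts, yet neither overlapped between groups. RAB9A, the close relative of RAB9B, rose by 0.33 (SE 0.062, edgeR adjusted p = 1.82e-04) without overlap. RAB7A, the central RAB of late endosomes, was at 0.08 (SE 0.048, edgeR adjusted p = 0.162), RAB12 at 0.10 (SE 0.076, edgeR adjusted p = 0.253) and RAB24, of autophagy, at 0.17 (SE 0.15, edgeR adjusted p = 0.319). Of the exon bases of RAB24, 44.8% are shared with MXD3. RAB29, which recruits the kinase LRRK2, rose by 0.12 (SE 0.05, edgeR adjusted p = 0.0411), but 8 of the 12 single-sample omissions ended that call (siCHKA replicates 1, 5 and 6 and siNT replicates 1 to 5), the lowest value being 0.091 without siCHKA replicate 1.

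Secretory granule members release stored cargo. Of 8 members, 1 fell (12.5%), 3 rose (37.5%) and 4 were not called, with a median of 0.078 that turned to -0.014 with siCHKA replicates 2, 4 and 6 alone. RAB26 (ENSG00000167964, chr16:2140803-2154165, plus strand), of secretory granule maturation, rose from a median of 14.7 CPM (12.9 to 15.2) to a median of 21.6 CPM (15.4 to 27.1), with 0.58 (SE 0.13, edgeR adjusted p = 0.00110). The groups did not overlap, but the 2 siCHKA sets stood apart, with 15.4 to 18.02 CPM in replicates 1, 3 and 5 and 25.1 to 27.1 CPM in replicates 2, 4 and 6 (log2 fold changes 0.21 and 0.86). RAB3A, the synaptic vesicle form, rose from a median of 27.2 CPM (23.5 to 28.1) to a median of 35.3 CPM (33.6 to 36.1), with 0.40 (SE 0.055, edgeR adjusted p = 7.15e-06) and no overlap. RAB3D, the main RAB3 of exocrine cells, went from a median of 339.6 CPM (279.7 to 409.6) to a median of 422 CPM (349.7 to 487), with 0.32 (SE 0.095, edgeR adjusted p = 0.00805). Its ranges overlapped, and its log2 fold change was 0.47 in siCHKA replicates 1, 3 and 5 and 0.14, not called, in replicates 2, 4 and 6. RAB3B was at a median of 129 CPM (109.8 to 149) in siNT and a median of 138 CPM (108 to 166) in siCHKA samples and was not called, with 0.11 (SE 0.12, edgeR adjusted p = 0.446). Its siCHKA samples were at 159.7 to 166 CPM in the first set and 108 to 116 CPM in the second, on either side of the siNT median.

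RAB27A, which docks exosomes and secretory lysosomes, fell from a median of 27.6 CPM (26.2 to 30.4) to a median of 22.3 CPM (20.1 to 25.4), with -0.31 (SE 0.067, edgeR adjusted p = 5.94e-04) and no overlap. RAB27B went from a median of 17.6 CPM (14.2 to 19.3) to a median of 16.99 CPM (14.5 to 18.1) and was not called, with -0.054 (SE 0.077, edgeR adjusted p = 0.563). RAB32, of melanosomes and other lysosome-related organelles, was at 0.05 (SE 0.097, edgeR adjusted p = 0.676) and RAB37 at -0.28 (SE 0.13, edgeR adjusted p = 0.0705).

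Both tested cilium members fell: RAB23, which restrains Hedgehog signalling, with -0.33 (SE 0.054, edgeR adjusted p = 5.69e-05) and no overlap, and RAB28 with -0.21 (SE 0.079, edgeR adjusted p = 0.0311). Of the exon bases of RAB23, 57.8% are shared with BAG2. The call of RAB28 was lost in 6 of the 12 single-sample omissions (siCHKA replicates 3 to 6 and siNT replicates 3 and 4, log2 fold changes -0.20 to -0.18) and in each siCHKA set alone. The remaining tested members, RAB40B and RAB40C, are RABs with a SOCS box that work in ubiquitin ligases, and both rose. RAB40C (ENSG00000197562, chr16:589357-629272, plus strand) went from a median of 24.3 CPM (21.4 to 27.3) to a median of 38.96 CPM (35.4 to 41.5), with 0.66 (SE 0.07, edgeR adjusted p = 3.37e-07) and no overlap. RAB40B was at 0.26 (SE 0.092, edgeR adjusted p = 0.0212), a call that ended without siNT replicate 1, 3 or 5 (log2 fold changes 0.22, 0.21 and 0.20). In the same way RAB39B lost its call in 6 of 12 omissions (siCHKA replicates 2 and 6 and siNT replicates 1, 2, 3 and 5, log2 fold changes 0.28 to 0.37). Conversely, 4 members gained a call on leaving out 1 sample: RAB4A without siCHKA replicate 3 (0.14), RAB5A and RAB6D without siCHKA replicate 4 (0.21 and 0.55), and RAB37 without siNT replicate 2 or 6 (-0.34 in both).

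The log2 fold changes given above already hold most of the size of a shift between close paralogues. To show the spread of such shifts as well, the log2 ratio of each pair was compared within samples. This was done over 14 pairs with exact two-sided permutation tests and adjustment over the 14. RAB11B against RAB25 moved most, the log2 ratio being -0.24 ± 0.12 in siNT and 0.86 ± 0.10 in siCHKA samples (SD, n = 6), a difference of 1.105 (exact permutation adjusted p = 0.00758). The ratio was below 0 in every siNT sample, from -0.41 to -0.13, and above 0 in every siCHKA sample, from 0.72 to 1.03. RAB11A shifted from RAB25 by 0.67 and from RAB11B by -0.43, and RAB27A from RAB27B by -0.27, each with an exact permutation adjusted p of 0.00758 and no overlap between groups. These 4 pairs had the smallest p that the design allows, 0.00216 before adjustment. For RAB11B against RAB25 this had to follow, since each gene alone separated the groups, in opposite directions, so the p adds nothing to the single calls. The ratios among RAB11A, RAB11B and RAB25 also depend on each other.

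Smaller or less even shifts were found for 4 more pairs, all with overlapping groups. RAB8A against RAB8B differed by -0.15 (exact permutation adjusted p = 0.0121) and RAB4A against RAB4B by -0.55 (exact permutation adjusted p = 0.0202). RAB2A against RAB2B differed by 0.50 (exact permutation adjusted p = 0.0433), but by 0.80 in siCHKA replicates 1, 3 and 5 and by 0.19 in replicates 2, 4 and 6. RAB3B against RAB3D differed by -0.23 (exact permutation adjusted p = 0.0454). The pairs RAB1A/RAB1B, RAB3A/RAB3B, RAB3A/RAB3D, RAB5A/RAB5B, RAB5A/RAB5C and RAB5B/RAB5C did not pass, with differences between -0.14 and 0.32. Single omissions brought 3 of these over the threshold: RAB3A/RAB3B at 0.37 without siCHKA replicate 5, RAB5A/RAB5B at -0.18 without siCHKA replicate 1 or siNT replicate 5, and RAB5B/RAB5C at 0.13 without siNT replicate 5. The RAB2A/RAB2B call was lost on leaving out siCHKA replicate 1, 3 or 5 or any siNT replicate but 4, with differences of 0.43 to 0.59 over all omissions of 1 sample. The RAB3B/RAB3D call was lost on leaving out any sample but siCHKA replicate 5 and siNT replicate 4, with differences of -0.28 to -0.19.

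**Figure D3:**
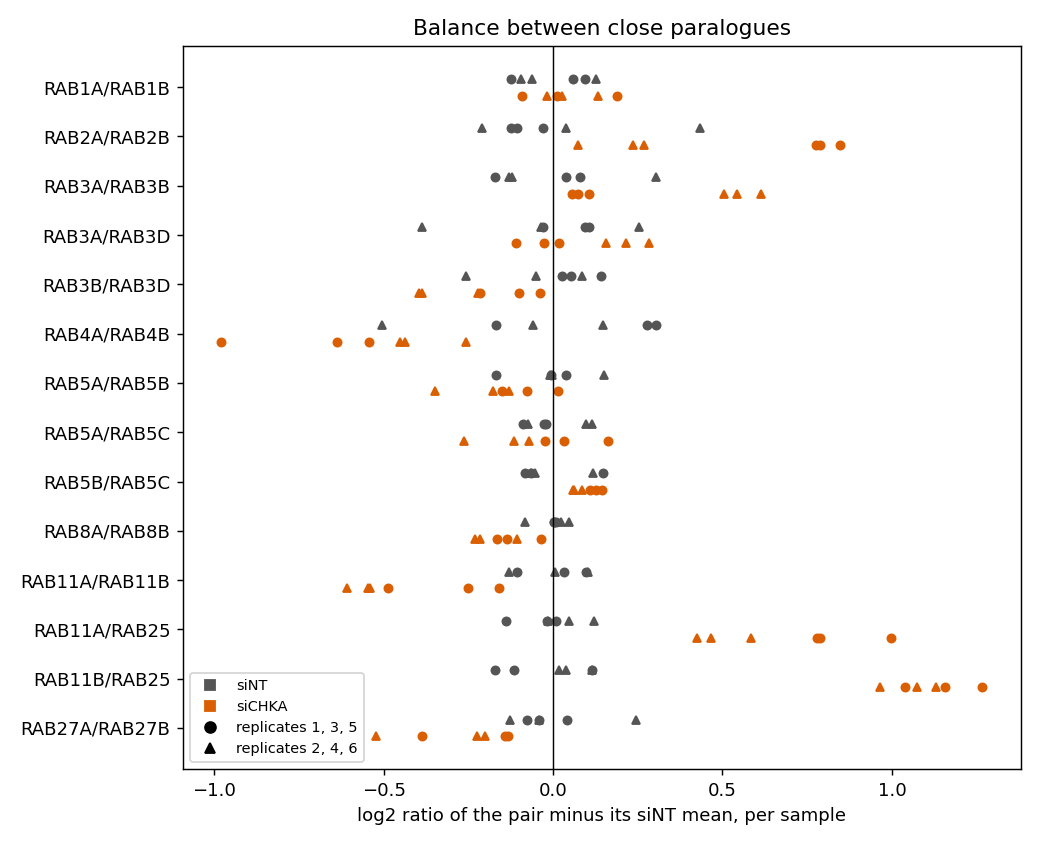
Log2 ratio of CPM of each of 14 paralogue pairs in every sample, minus the mean of the siNT samples, so that 0 is the siNT balance. The 6 siCHKA points of RAB11B/RAB25 and RAB11A/RAB25 lie to the right of all siNT points and those of RAB11A/RAB11B to the left, while RAB1A/RAB1B mixes both groups.

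Levels can be compared between genes only per length, so CPM were divided by kilobases of exon. On this scale RAB10 was the highest member in siNT samples at 81.3 ± 4.41 CPM per kilobase (SD, n = 6), followed by RAB3D at 76.9 ± 10.5 and RAB5C at 74.2 ± 3.06. RAB3D differed from both by less than its own SD, whereas RAB10 was above RAB5C in 6 of 6 siNT samples. RAB1B (60.4 ± 3.29), RAB7A (53.9 ± 1.43), RAB11A (45.9 ± 1.498) and RAB1A (44.4 ± 1.32) came next, the ranges of the last pair overlapping. RAB21 was in place 38 of 57 at 4.78 ± 0.540, its annotated exons being 16048 bases long, and the 12 members that changed by 0.5 or more ranged from place 10 (RAB25, 33.5 ± 1.296) to place 54 (RAB6C, 0.215 ± 0.0570). None of the 9 most abundant members per kilobase changed by 0.5 or more.

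The 2 siCHKA sets were also compared with all 6 siNT samples one at a time. Of the 54 tested members, 25 were called in both sets, each in the same direction, 10 only with replicates 1, 3 and 5 (RAB3B, RAB3D, RAB5A, RAB7A, RAB10, RAB11A, RAB12, RAB13, RAB14 and RAB29), 7 only with replicates 2, 4 and 6 (RAB6C, RAB8B, RAB17, RAB24, RAB35, RAB39B and RAB40B), and 12 with neither. RAB21 had log2 fold changes of -1.55 and -1.62, RAB36 of 0.66 and 0.67 and RAB9B of 1.18 and 1.13, so these hardly depended on the set. RAB5A, RAB7A, RAB11A and RAB12 passed only with replicates 1, 3 and 5, at 0.32, 0.15, 0.16 and 0.21, and lay between -0.039 and 0.00057 with the other set. RAB24 and RAB35 passed only with replicates 2, 4 and 6, at 0.43 and -0.20. The median of the family was 0.11 with the first set and 0.039 with the second. CHKA itself was at 1.91 to 2.34 CPM in the first and 2.27 to 4.67 CPM in the second set.

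The proteins that load, switch and read RABs were taken from a list of 168 genes, all with an identifier in the data, of which 157 were tested. In it 50 genes fell, 54 rose and 53 were not called, with a median log2 fold change of 0.026, where 30.1% and 32.1% of all tested genes fell and rose. The genes named here all passed the adjusted p of 0.05. GDI2, a GDP dissociation inhibitor that extracts RABs from membranes, fell from 454 ± 41.8 CPM to 266 ± 12.5 CPM (SD, n = 6), with -0.78 (SE 0.062, edgeR adjusted p = 9.89e-09). Among the 4 genes of prenylation, RABGGTA, a subunit of the enzyme that lipidates RABs, rose by 0.62 (SE 0.071, edgeR adjusted p = 8.94e-07) and CHM, the escort protein, fell with -0.16 (SE 0.053, edgeR adjusted p = 0.0171), while the other 2 did not pass.

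Of 50 tested exchange factors, 15 fell and 17 rose. DENND1B, an exchange factor of RAB35, fell with a log2 fold change of -0.67 (SE 0.064, edgeR adjusted p = 1.09e-07), RGP1, a subunit of the RAB6 exchange complex, with -0.59 (SE 0.057, edgeR adjusted p = 1.09e-07), and the TRAPP subunit TRAPPC1 with -0.57 (SE 0.05, edgeR adjusted p = 3.47e-08). DENND6B rose with 1.28 (SE 0.12, edgeR adjusted p = 6.32e-08), and the TRAPP subunits TRAPPC6A and TRAPPC5 with 0.94 (SE 0.10) and 0.54 (SE 0.07). RAB3IP, the exchange factor of RAB8, rose with 0.51 (SE 0.07). TRAPP subunits were thus found on both sides.

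Of 38 GTPase activating proteins, 12 fell (31.6%) and 12 rose (31.6%), 7 and 2 of them by 0.5 or more, beside 14.0% and 16.2% of all tested genes at that size. TBC1D5, which acts on RAB7 with the retromer, fell from 81.6 ± 8.796 CPM to 31.8 ± 2.11 CPM, with -1.36 (SE 0.072, edgeR adjusted p = 4.64e-11). USP6NL, which acts on RAB5, fell with -1.08 (SE 0.069), TBC1D13, which acts on RAB35, with -0.99 (SE 0.063), and TBC1D2B with -1.12 (SE 0.082). The rises of smallest p were SGSM1 with 0.85 (SE 0.12), EVI5L with 0.37 (SE 0.077), TBC1D2 with 0.40 (SE 0.088) and TBC1D8B with 0.24 (SE 0.06).

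Among 63 tested effectors, 21 fell (33.3%) and 23 rose (36.5%), near the 30.1% and 32.1% of all tested genes, and 13 and 4 of them by 0.5 or more, beside 14.0% and 16.2%. KIF20A, a mitotic kinesin that was first found through RAB6, fell from 212 ± 7.42 CPM to 65.8 ± 2.399 CPM, with -1.69 (SE 0.045, edgeR adjusted p = 1.88e-14). The early endosome tether EEA1, an effector of RAB5, fell from 75.2 ± 6.59 CPM to 32.7 ± 2.64 CPM, with -1.20 (SE 0.067, edgeR adjusted p = 1.00e-10), and ANKFY1, a further effector of RAB5, with -0.78 (SE 0.054). FYCO1, which couples RAB7 to microtubule motors, fell with -1.20 (SE 0.071). SYTL2, an effector of RAB27, rose from 51.3 ± 5.005 CPM to 144 ± 8.28 CPM, with 1.49 (SE 0.064, edgeR adjusted p = 3.40e-12), while RAB27A fell. OPTN, an effector of RAB8, rose with 1.19 (SE 0.13), the exocyst subunit EXOC6 with 0.42 (SE 0.057) and the sterol sensor OSBPL1A, an effector of RAB7, with 0.43 (SE 0.059). EEA1 and ANKFY1 fell while the RAB5 genes themselves did not. Both were picked by smallest p among the effectors that fell, so they do not stand for the effectors of RAB5 as a set.

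**Figure D4:**
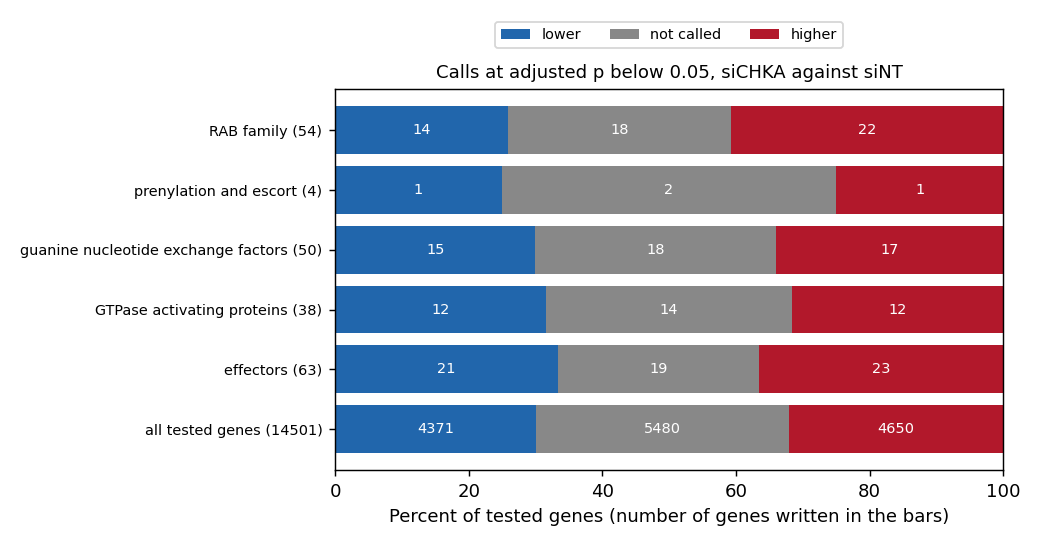
Percent of tested genes lower, not called and higher after siCHKA for the RAB family, for 4 roles of RAB machinery and for all 14501 tested genes, with the number of genes in each bar. The family shows 14 lower and 22 higher of 54, and the exchange factors, activating proteins and effectors lie near the split of all genes.

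The words shown above were found in the 3′ UTR of 24 of the 54 tested members, at 30 sites, 13 of GCCAGAT and 17 of TGCCCTT, none overlapping another. The 24 members had a median log2 fold change of -0.056, and of the 30 without a word 6 fell and 15 rose, with a median of 0.17. Over all 12296 tested genes with an annotated 3′ UTR, 2907 held a word, and 44.3% of them fell and 23.6% rose, beside 30.3% and 33.8% of those without. GCCAGAT occurred in 12 of the tested members (22.2%) and in 9.52% of all those genes, and TGCCCTT in 16 (29.6%) and 17.3%. The 3′ UTR had a median length of 2501 bases in members with a word and 1788 bases without, and 2931 and 993 bases over all genes, so that length moved with the presence of a word and its part was not tested. RAB21 held 3 sites in a 3′ UTR of 14613 bases, the longest of the family, whereas that of RAB25 is 217 bases long. RAB39A and RAB31, which fell by 1.28 and 0.67, hold neither word, and RAB3A, with 1 GCCAGAT, rose.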

How the data were processed

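Per the labels, single-end 40-base reads of a TruSeq mRNA library were aligned by the authors to GRCh37 with TopHat2 2.0.4 and counted per Ensembl gene with HTSeq 0.5.3p9. The deposited values are raw counts, in 4 files per sample (48 in all), between which counts agreed within sampling noise, and the 4 were summed. Reads with several alignments (26.1% to 30.6%) and reads shared by overlapping genes (2.82% to 2.93%) stayed out, as did 3.95% to 5.97% outside genes. The strand setting is not given in the sources used here.

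The RAB family, its compartments, the machinery list and the 7-base words were chosen with earlier results of these data known, and RAB6D was placed in a compartment after its counts had been seen. Symbols (82.8% of 54127 identifiers named), exon lengths and 3′ UTRs came from GENCODE 44 on GRCh38, a later build than that of the counts, so all coordinates are GRCh38. Exon lengths are unions over transcripts and 3′ UTRs those of the Ensembl canonical transcripts. Exon bases shared with other genes are named above only for the larger shares. Smaller shares were present too, such as 26.1% in RAB6C, 25.1% in RAB3D, 24.8% in RAB13 and 22.9% in RAB1A. The quasi-likelihood test of edgeR 4.0.16 was used under R 4.3.3 (filterByExpr, TMM, Benjamini-Hochberg adjustment over 14501 genes, threshold 0.05), with 6 siCHKA and 6 siNT samples and no covariates. CPM use TMM library sizes. Paralogue ratios carry a pseudocount of 0.1 CPM and exact two-sided permutation tests over samples (all arrangements, absolute difference of means) in NumPy 2.4.6, computed after the counts had been seen. Named were all members, with sample values for RAB21, for called members changed by 0.5 or more and for paralogue sets, and up to 4 machinery genes per role and direction by smallest p. Some machinery genes are not reported here. Same-numbered samples did not deviate together, so numbers were not used as pairs. Alternatives were RLE scaling, DESeq2 1.42.0, 2 other filters, a block for replicate number, only replicates 1 to 3, each siCHKA set, the first file only and each sample left out. The script was tested on simulated counts.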

Additional observations from a re-analysis of the deposited data

Results flagged for a closer look

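Within 7 of 110 groups of 6 samples, 1 sample lay apart from the other 5 on the log2 CPM scale by Dixon's ratio of the gap to the range at its 95% critical value. Chance gives about 1 in 20, or 5.5 of 110, so the number of such samples is close to it.

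In siNT replicate 4, 3 transcripts were high: RAB2A at 141 CPM beside 120.1 to 127 CPM (ratio 0.648), RAB12 at 75.8 CPM beside 58.5 to 64.02 CPM (ratio 0.651) and RAB18, the RAB of lipid droplets, at 158 CPM beside 138 to 144 CPM (ratio 0.722). In siNT replicate 3, the library that differed most from the other siNT libraries, RAB19 was low at 4.04 CPM beside 6.57 to 8.76 CPM (ratio 0.628) and RAB25 was high at 60.9 CPM beside 54.9 to 56.5 CPM (ratio 0.716). RAB33B was low in siNT replicate 1, at 13.7 CPM beside 16.0 to 16.9 CPM (ratio 0.734). RAB29 was high in siCHKA replicate 1, at 87.7 CPM beside 75.8 to 79.1 CPM (ratio 0.712), and its call was among those lost when that sample was left out. The calls of RAB2A, RAB18, RAB19, RAB25 and RAB33B held without these samples, and RAB12 was not called on leaving out any single sample.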

How the results depend on the processing

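Of the 36 called members, 23 including RAB21 kept direction and call under every one of the 21 alternatives in which they were tested. RAB39A was tested in 19 and RAB9B in 20 of them, since filters removed them from the others. The family counts ranged from 10 to 15 lower and 18 to 23 higher, and those of the machinery list from 42 to 54 and 45 to 59. The 10 lower were found with the first file only, where 49 members were tested. With the replicate block the family had 13 lower and 20 higher members. Only the numbers are shared by the samples: correlations of same-numbered deviations ran from -0.396 to 0.3205. No called member changed sign. Sign changes were found in members and pairs that were not called and in medians of compartments. With siCHKA replicates 1, 3 and 5 alone, RAB1B was at 0.049, RAB24 at -0.17, RAB27B at 0.0016, RAB35 at 0.070, the RAB3A/RAB3D ratio at -0.040 and RAB5A/RAB5C at 0.056. With replicates 2, 4 and 6 alone, RAB1A was at -0.045, RAB3B at -0.19, RAB5A at -0.0082, RAB11A at -0.039 and RAB12 at -0.016, and the median was 0.039 for the family, -0.045 for the endoplasmic reticulum and Golgi, -0.014 for secretory, 0.039 for recycling and 0.052 for early endosome members. The endoplasmic reticulum and Golgi median was 0.088 with the first set. With replicates 1 to 3 of each group it was 0.082, and RAB6B was at 0.064, RAB27B at 0.016 and RAB32 at -0.053. RAB1A was at -0.00431 without a filter and from -0.00321 (without siCHKA replicate 1) to 0.0455 (without replicate 6), RAB1B at 0.00467 with 10 or more counts in every sample, and RAB32 from -0.0146 and -0.00129 (without siNT replicate 5 or 6) to 0.0783 (without replicate 3). With the first file only, RAB6B was at 0.011 and the secretory median at 0.22. The causes were not tested. The paralogue alternatives were chosen after seeing the data: RAB4A/RAB4B lost its call in each siCHKA set (-0.72 and -0.38), RAB2A/RAB2B in the second (0.19), RAB3B/RAB3D in the first (-0.12), and RAB3A/RAB3B and RAB5A/RAB5B gained one in the second (0.55 and -0.22). RAB8A/RAB8B and RAB27A/RAB27B lost theirs in the first set (-0.11 and -0.22) and with the first file (-0.12 and -0.12), as did RAB2A/RAB2B (0.57) and RAB3B/RAB3D (-0.23). A siCHKA set holds fewer samples, so the smallest p that a permutation test can give is larger, and a lost call need not mean a smaller shift. The RAB4A/RAB4B difference was -0.55 over all samples, a smaller shift than in the first set. Members under 1 CPM are limited by depth.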
